A study of Mus musculus with 12 samples.

Results

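The families of axon guidance cues and their receptors were followed in dermal papilla (DP) cells, the mesenchymal cells at the base of the hair follicle. Members were chosen by gene symbol: semaphorins (Sema), plexins (Plxn), neuropilins (Nrp), ephrins (Efn), Eph receptors, Slit, Robo, netrins (Ntn) and Unc5 receptors. Of 14986 protein-coding genes listed on both days, 63 were members, made up of 20 Sema, 9 Plxn, 2 Nrp, 8 Efn, 12 Eph, 3 Slit, 3 Robo, 3 Ntn and 3 Unc5 genes. Epha10 and a second identifier of Ntn5 were listed at P14 only, with 13 and 18 reads in all, and were left out.

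YFP-positive DP cells were sorted from the skin of mice at postnatal day 14 (P14) and P16, in the growth phase (anagen) of the first hair cycle, and their RNA was sequenced. Each day had 3 control and 3 dMF1/2 libraries, 12 in all, and the study asked how loss of Fgf signaling in the DP alters its transcriptome before regression (catagen) begins. The dMF1/2 double mutants carried Cor-cre with both copies of Fgfr1 and of Fgfr2 floxed, so that deletion is limited to cells that have expressed Corin, and all sorted cells bear a YFP reporter at the ROSA26 locus that Cre switches on. The labels call the controls wild type, while the methods of the study list control mice with Cor-cre and a single floxed copy of each receptor or floxed mice without Cre. Since the reporter needs Cre, YFP-positive cells can come only from the first of these, so that the sorted control cells also expressed Cre and carried a floxed copy of each receptor. The mutants are thus compared with cells in which a single copy of each receptor was open to deletion, not with cells without floxed copies.

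Guidance cues were first studied in growing axons, where a bound receptor remodels the actin cytoskeleton and attracts or repels the growth cone, and the same pairs act in vessels and other tissues. Netrins bind Dcc and neogenin, and also Unc5 receptors, which mediate repulsion. Slits bind Robo receptors, and semaphorins bind plexins, with neuropilins as co-receptors for the secreted class 3 members. Ephrins stay on the cell surface, the A class by a lipid anchor and the B class by a transmembrane domain, so that ephrin and Eph signal between cells in contact and in both directions.

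Promoters of 4 of the genes called at P16 are shown. Unc5b (lower in dMF1/2), Nrp2 (lower) and Ephb6 (higher) are printed because theirs are the only windows of called members that hold a searched core, and Unc5c (higher) because it is the netrin receptor that moved against Unc5b. The choice thus rests on the match itself, and the other 7 windows of called members held neither core. Each run is the 250 bases before the start site in RefSeq's GRCm38.p6 annotation, 5′ to 3′ on the strand of the gene, and capitals mark a match to the ETS core CCGGAA or the TCF/LEF core CTTTGA on either strand, cores bound by factors downstream of Fgf and Wnt signaling.
Unc5b, chr10:60831582-60831831, minus strand: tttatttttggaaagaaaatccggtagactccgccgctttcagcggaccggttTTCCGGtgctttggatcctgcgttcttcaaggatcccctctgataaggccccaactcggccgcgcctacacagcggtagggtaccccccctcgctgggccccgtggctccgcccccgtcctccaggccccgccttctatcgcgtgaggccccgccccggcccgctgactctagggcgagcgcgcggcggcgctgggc
Unc5c, chr3:141465314-141465563, plus strand: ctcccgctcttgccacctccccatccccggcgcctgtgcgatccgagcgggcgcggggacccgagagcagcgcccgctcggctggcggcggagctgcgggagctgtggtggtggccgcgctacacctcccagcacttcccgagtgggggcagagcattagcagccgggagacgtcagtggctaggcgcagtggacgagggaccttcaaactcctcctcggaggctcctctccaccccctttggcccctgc
Nrp2, chr1:62703067-62703316, plus strand: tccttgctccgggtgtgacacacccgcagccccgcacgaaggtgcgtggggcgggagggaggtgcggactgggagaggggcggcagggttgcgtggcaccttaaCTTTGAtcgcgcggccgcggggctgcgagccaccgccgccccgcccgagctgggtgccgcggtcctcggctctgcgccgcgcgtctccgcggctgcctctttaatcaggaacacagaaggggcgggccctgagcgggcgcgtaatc
Ephb6, chr6:41605261-41605510, plus strand: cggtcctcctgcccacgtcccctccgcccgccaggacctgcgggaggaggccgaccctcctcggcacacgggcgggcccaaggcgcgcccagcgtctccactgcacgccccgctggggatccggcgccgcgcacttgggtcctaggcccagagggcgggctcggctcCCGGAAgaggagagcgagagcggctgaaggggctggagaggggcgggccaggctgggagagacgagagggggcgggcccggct

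The match began 197 bases before the start in Unc5b, 146 bases in Nrp2 and 83 bases in Ephb6, and the Unc5c window held neither core. RefSeq promoters were found by symbol for 54 of the 63 members, and Efnb3, Ntn1, Plxna1, Plxna4, Sema3b, Sema3f, Sema6a, Slit1 and Unc5d had none in the table. In windows of 300 bases (the 250 bases before the start and the 50 after it), CTTTGA was held by 16% of all 32851 promoters and CCGGAA by 14.9%. Of the 5 promoters of members higher in dMF1/2 at P16, 0 held CTTTGA and 1 held CCGGAA. Of 6 promoters of 5 members that were lower, 1 held CTTTGA and 1 held CCGGAA. Over all 70 promoters of members, 5 held CTTTGA (7.14%, exact 95% binomial interval 2.36 to 15.9%) and 7 held CCGGAA (10%, 4.12 to 19.5%), as a description only, since windows of 1 gene can overlap. A match is not a bound site. The RefSeq start can differ from the Ensembl start used for counting: the Unc5c window begins inside the Ensembl gene, which starts at 141465216, and the Nrp2 and Ephb6 windows cross the Ensembl start.

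Libraries held 19302358 to 29860750 reads summed over genes. Fgfr1 and Fgfr2, the targeted genes, are counted over whole genes here, so that reads from exons outside the deleted part remain. Fgfr1 was lower in each dMF1/2 library than in any control of its day, with log2 fold changes of -0.40 (SE 0.13, limma's adjusted p = 0.501) at P14 and -0.50 (SE 0.16, adjusted p = 0.130) at P16, while Fgfr2 overlapped between the groups on both days (-0.11 and -0.01). The replicate 1 libraries of both genotypes at P14 stood apart, with 7.06% and 9.15% of their reads on Col1a1 against 13.1% to 17.7% in the other 10, and results that rest on P14 are given without them where this matters. All 15 DP markers were present in every library. Levels are given as reads per kilobase of exon, written as RPKM. Reads were first rescaled together by median of ratios, then divided by the same constant in every library, not by that library's own read total. Summed in this RPKM, the DP markers reached 664 to 1065 in the P16 controls and 1048 to 1534 in the P16 mutants. The 6 mural (pericyte) markers reached 142 to 166 in the P16 controls and 70.9 to 112 in the mutants, so these groups did not overlap. These markers did not move alike: at P16 the log2 fold change was -2.05 for Cspg4, the only one called, and -0.55 for Rgs5. Abcc9, Notch3 and Kcnj8 gave -0.38, -0.22 and 0.04. The 10 endothelial markers summed to 7.87, 16.6 and 14.7 in the P16 controls and 7.50, 10.6 and 9.35 in the mutants, and Sox17 among them was at 0 in 3 libraries. At P16, 8 of the 9 endothelial markers tested had a log2 fold change below 0 (median -0.71) and none was called. The summed keratinocyte, melanocyte, immune and skeletal muscle markers reached at most 13.0, 6.88, 5.82 and 9.33, against 664 for the lowest DP sum. The Schwann cell and nerve list (12 of 14 present) reached 140 to 187 in the P16 controls and 188 to 214 in the mutants. Most of that sum was Pmp22, at 112 to 178 over the 6 P16 libraries, while Sox10, a defining Schwann cell gene, reached at most 0.213. The dermal sheath list (262 to 548 in P16 controls, 260 to 458 in mutants) and the dermal fibroblast list (1992 to 2664 and 1759 to 2673) were abundant and overlapped between genotypes. Whether these marker differences have a part in the members' results was not tested. In sorted bulk RNA, fewer cells of a type, less RNA per cell and a change in single marker genes cannot be told apart.

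**Figure D1:**
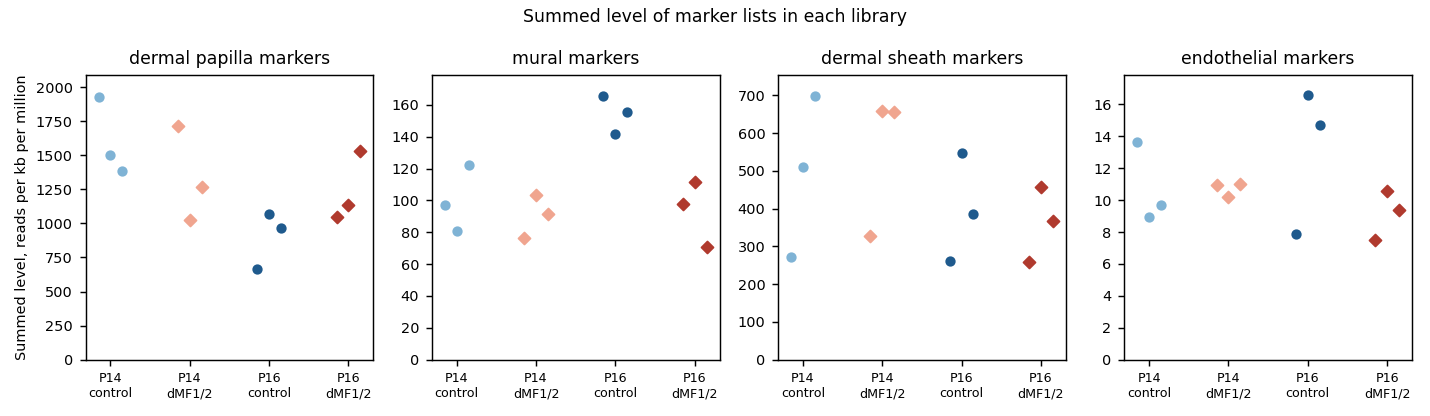
Summed level of 4 marker lists in each library (points), in RPKM on linear axes from 0, for the 4 groups on the x axis. At P16 the mural sums did not overlap between control (142 to 166) and dMF1/2 (70.9 to 112), and the DP sums overlapped between 1048 and 1065.

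To compare levels between genes, the recovered reads were scaled to RPKM as defined above, written below as the level, for the 62 members with an annotated exon length. Of these, 21 had a mean level of at least 10 over the 12 libraries, 28 lay between 1 and 10, and 13 lay under 1. The highest members were secreted ligands. Slit3, a Robo ligand, had a mean level of 70.5 (63.3 to 78.5 over the 12 libraries), and Ntn1, netrin-1, had 57.9 (47.6 to 68.8). Sema3b, a class 3 semaphorin, followed at 37.6, but over a wide range of 13.3 to 53.1. Its lowest level was in replicate 1 of P14 control, and replicate 1 of P14 dMF1/2 was also low, with 1478 and 1847 normalized reads against 4447 to 5523 in the other 4 libraries of that day.

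The highest receptors were Ephb4, a receptor of ephrin-B2, at a mean level of 32.7 (26.1 to 44.9), and Plxnb2, a receptor of class 4 semaphorins, at 32.2 (29.3 to 34.9). In the other families the highest members were Unc5b at 17.8 (7.18 to 44.6), Efnb1 at 15.6 (9.89 to 22.4), Robo1 at 13.0 (9.54 to 19.0) and Nrp2 at 13.0 (6.54 to 19.8). The range of Slit3 was narrow and that of Unc5b wide relative to their means. At the low end, 6 members (Robo4, Unc5d, Plxnb3, Slit1, Epha8 and Epha5) had mean levels under 0.15. Summed over all 62 members, the level was 665 ± 18.5 (SD, n = 3) in P16 control and 654 ± 14.6 in P16 dMF1/2 libraries, and the 2 ranges (654 to 687 and 645 to 671) overlapped.

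**Figure D2:**
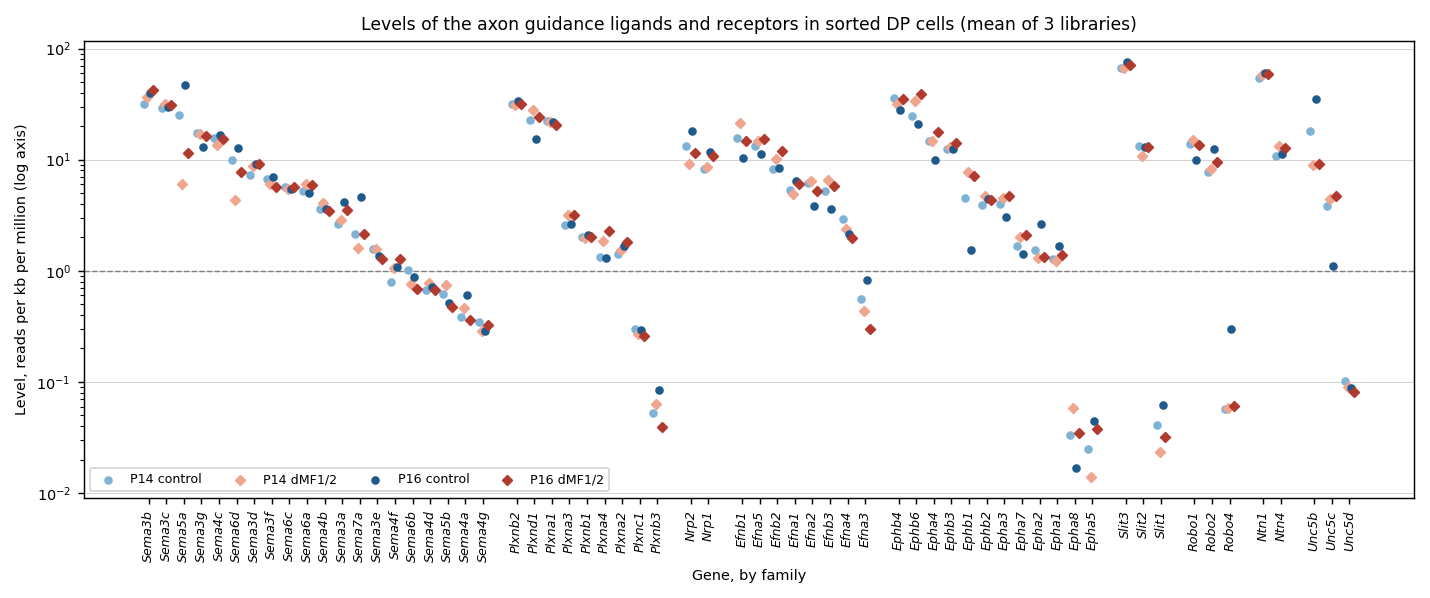
Mean level of each member with an exon length (RPKM, log axis, 3 libraries a group) by family on the x axis, with circles for control and diamonds for dMF1/2. Slit3 and Ntn1 have the highest mean in every group, and the dashed line marks a level of 1.

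At P16, 11 of the 59 members tested differed between dMF1/2 and control DP cells at an adjusted p under 0.05 (limma), 6 of them higher and 5 lower in the mutants. This is 18.6% of the members, against 4.32% of all 13457 genes tested that day. Receptors made up 6 of the 11 (Unc5c, Ephb1, Ephb6 and Plxnd1 higher, Unc5b and Nrp2 lower) and ligands 5 (Efnb1 and Efnb3 higher, Sema5a, Sema7a and Efna3 lower). The genotypes did not overlap in 25 of the 59 members, 16 higher and 9 lower in dMF1/2, against 24.5% of all genes that day. The median log2 fold change was -0.03 over the members and -0.00 over all genes, while the median of its absolute size was 0.28 and 0.15, so the members moved in both directions. With the replicate number as a block, since same-numbered libraries of a day deviated together, 20 members passed (13 higher and 7 lower) against 10.4% of all genes. DESeq2 on the recovered reads also called 20, the 11 and Efna5, Efnb2, Epha4, Epha7, Plxna4 and Robo1 higher and Epha2, Robo4 and Sema6d lower, against 8.51% of all 13193 genes with an adjusted p from DESeq2. The count depended on single libraries: leaving out control replicate 1 gave 7 calls and control replicate 3 gave 3, while 5 passed without dMF1/2 replicate 2 and 2 without dMF1/2 replicate 3. Over all genes the count fell too, from 582 to 399, 184, 306 and 149 in these removals.

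**Figure D3:**
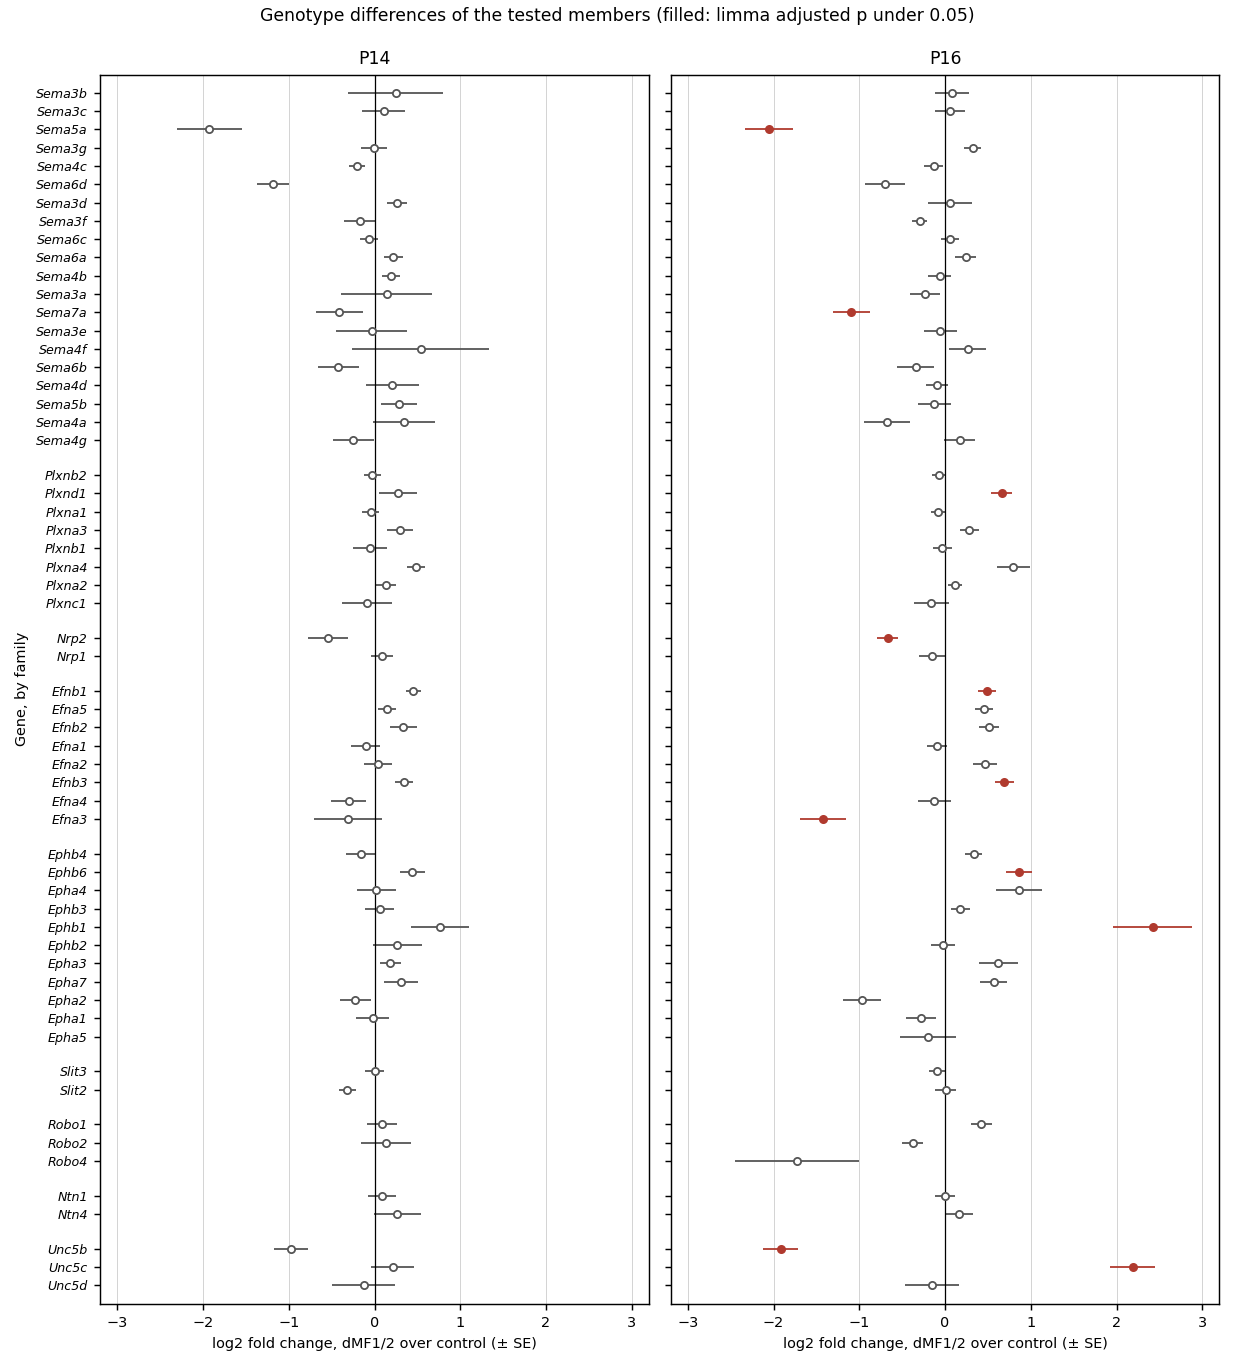
Log2 fold change of dMF1/2 against control for each tested member at P14 and P16, by family, with bars of 1 SE from limma and filled points for adjusted p under 0.05. At P16, 6 members were called above 0 and 5 below it, with Unc5c and Ephb1 at the top and Sema5a and Unc5b at the bottom, and at P14 none was called.

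Unc5b and Unc5c, receptors of netrin-1, differed in opposite directions at P16. Unc5b, on chromosome 10 (10:60762610-60831581 in mm10), read 6648, 4144 and 4917 normalized reads in the P16 controls and 1652, 1074 and 1409 in the P16 mutants. The lowest control library thus lay well above the highest mutant library. The log2 fold change was -1.92 (SE 0.20, adjusted p = 0.0050), from a mean of 5236 ± 1282 to 1378 ± 290 (SD, n = 3). Unc5c, on chromosome 3 (3:141465216-141834924), moved the other way, with 403, 770 and 340 reads in the controls and 2043, 2343 and 2090 in the mutants. Its 3 mutant libraries lay close together and all above the controls, with a log2 fold change of 2.19 (SE 0.27, adjusted p = 0.0064). Of the 11 calls, only those of Unc5b and Unc5c passed with each of the 6 libraries left out in turn. The promoters of this pair are the first printed above.

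Unc5d, the last Unc5 member listed, was barely detected at 13.8 to 23.3 reads in the P16 libraries. In RPKM, the level of Unc5b was 44.3 times that of Unc5c in the median P16 control library (16.4 to 50.4 over 3 libraries) and 2.06 times in the median P16 mutant (1.40 to 2.47). At P14 the ratio was 2.69 to 8.02 in controls and 1.43 to 2.58 in mutants, so that on both days each control library had the higher ratio. The summed level of the 3 Unc5 genes was 36.3 ± 8.31 in the P16 controls and 14 ± 1.54 in the mutants. Unc5c made up 1.11 of this sum in the controls and 4.71 in the mutants.

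Dcc, the receptor that mediates attraction to netrin and is no member by the symbol rule, was also higher in the P16 mutants. It read 133, 105 and 153 in the controls and 400, 693 and 918 in the mutants, with a log2 fold change of 2.29 (SE 0.29, adjusted p = 0.0070), and its call was kept under each removal of 1 library (highest adjusted p 0.0320). Neo1, neogenin, had a log2 fold change of 0.28 (adjusted p = 0.0989). The ligand itself, Ntn1, was abundant and level, with 8414 to 9545 reads in the P16 controls and 7619 to 9609 in the mutants, a log2 fold change of -0.01 (SE 0.12, adjusted p = 0.987). Ntn4, which acts in basement membranes, gave 0.16 (SE 0.16, adjusted p = 0.660), and Ntn5 was too low to test at 3.0 reads or fewer in each P16 library.

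**Figure D4:**
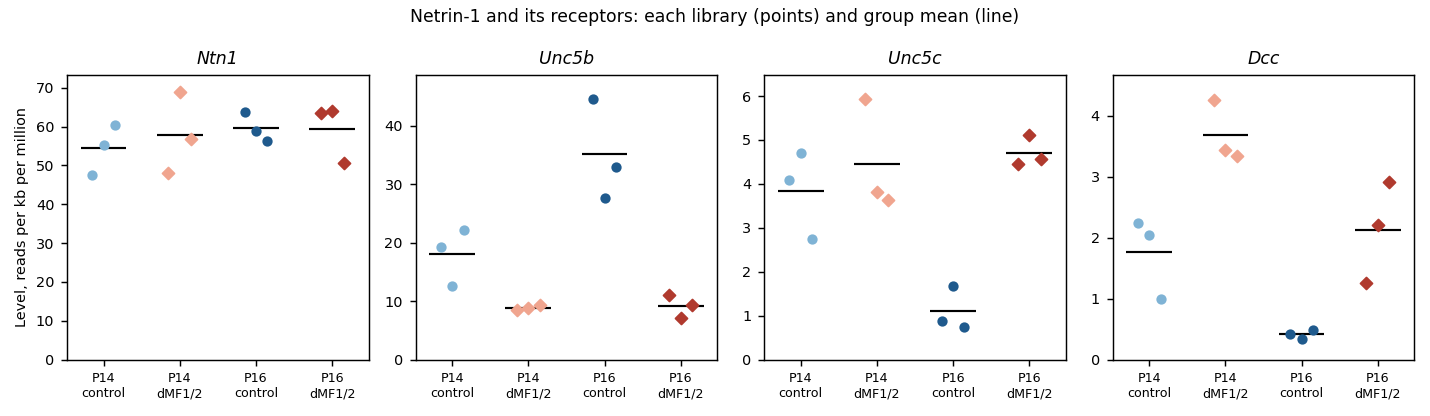
Level (RPKM, linear axis from 0) of the netrin ligand Ntn1 and the receptors Unc5b, Unc5c and Dcc in each of the 12 libraries, with the mean of each group as a line. Ntn1 stays within 47.6 to 68.8 throughout, whereas Unc5b is highest and Unc5c and Dcc are lowest in the 3 P16 control libraries.

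Of the 3 transmembrane B ephrins, Efnb1 and Efnb3 were higher in the P16 mutants. Efnb3 (chromosome 11) read 251, 310 and 258 in the controls and 431, 436 and 448 in the mutants, a log2 fold change of 0.69 (SE 0.11, adjusted p = 0.0162). Efnb1 (chromosome X) read 844, 816 and 908 in the controls and 1079, 1176 and 1373 in the mutants, a log2 fold change of 0.49 (SE 0.11, adjusted p = 0.0426). All 3 mutant libraries lay above all 3 controls for both genes. Efnb2, the remaining B ephrin and a ligand of Ephb4 in vessels, did not overlap either, with 1260 to 1462 reads in controls and 1657 to 2140 in mutants, but missed the threshold (0.51, adjusted p = 0.0505), which it passed with the replicate block (adjusted p = 0.0076). The summed level of the 3 B ephrins was 22.4 ± 1.08 in controls and 32.3 ± 3.28 in mutants.

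The A ephrins did not move together. Efna3 was low and fell further, with 55.9, 39.4 and 49.7 reads in the P16 controls and 16.2, 14 and 22.2 in the mutants, a log2 fold change of -1.43 (SE 0.27, adjusted p = 0.0273). Its level was under 1 RPKM in each library. Efna5, the most abundant A ephrin, gave 0.45 (adjusted p = 0.0533) and Efna2 gave 0.47 (adjusted p = 0.104), both without overlap, and both passed with the replicate block (adjusted p = 0.0417 and 0.0346). Efna1 and Efna4 overlapped between the genotypes.

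The ephrin calls passed with the replicate block (adjusted p = 0.0089 for Efnb3, 0.0105 for Efnb1 and 0.0163 for Efna3), but several were lost with 5 libraries. Efnb3 was lost without control replicate 3, dMF1/2 replicate 2 or dMF1/2 replicate 3 (adjusted p = 0.0679, 0.0505 and 0.0713). Efnb1 was lost in 5 of 6 removals, all but dMF1/2 replicate 1 (adjusted p = 0.0867 to 0.123), and Efna3 in all but control replicate 2 (0.0516 to 0.105). In these removals the log2 fold changes were 0.65 to 0.69 for Efnb3, 0.40 to 0.54 for Efnb1 and -1.60 to -1.29 for Efna3.

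Of the Eph receptors, limma called 2 of the 11 tested higher in the mutants and none lower. Ephb1 (chromosome 9), a B-class receptor, read 91.7, 361 and 317 in the P16 controls and 983, 1151 and 1447 in the mutants, a log2 fold change of 2.42 (SE 0.46, adjusted p = 0.0282). The groups lay far apart, although control replicate 1 was much lower than the other 2 controls. Without that library the log2 fold change was 1.80 (adjusted p = 0.0035), and over the 6 removals it ran from 1.80 to 2.78. Ephb1 overlaps the gene 9630041A04Rik on the opposite strand, and the strand setting of the counting is not given in the sources used here. Ephb6 (chromosome 6), a family member without kinase activity, read 1715, 2056 and 1908 in the controls and 3506, 2757 and 4213 in the mutants, a log2 fold change of 0.87 (SE 0.15, adjusted p = 0.0215). Its promoter is the last of those printed above. The Ephb1 call was lost without control replicate 3 or any single dMF1/2 replicate (adjusted p = 0.0600 to 0.114). The Ephb6 call was lost without control replicate 1, control replicate 3, dMF1/2 replicate 1 or dMF1/2 replicate 3 (from just above 0.05 to 0.0743).

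Further Eph receptors did not pass in limma without the replicate block. Ephb4, the highest Eph receptor, read 2889 to 3220 in the P16 controls and 3425 to 4181 in the mutants (0.33, adjusted p = 0.116). Epha2, a receptor of the A class common in epithelia, went the other way, with 346, 207 and 333 reads in the controls and 158, 119 and 168 in the mutants (-0.97, adjusted p = 0.0523). It passed with the replicate block (adjusted p = 0.0041) and with DESeq2 (0.0010). Epha4 (0.86, adjusted p = 0.127), Epha7 (0.57, 0.0934) and Epha3 (0.62, 0.190) were called higher with that block (0.0146, 0.0371 and 0.0164), and Epha4 and Epha7 with DESeq2 as well (0.0179 and 0.0273). Summed over the 12 Eph genes, the level was 86.2 ± 6.44 in the P16 controls (78.8 to 90.1) and 127 ± 16 in the mutants (112 to 144). For all 8 ephrins it was 46.8 ± 1.21 and 61.1 ± 3.68. Both sums lay higher in each mutant library than in any control.

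In the semaphorin group the largest difference was in Sema5a (15:32244813-32696341), a transmembrane semaphorin with thrombospondin repeats. It read 15303, 26664 and 20922 in the P16 controls and 7506, 3832 and 4142 in the mutants, and the groups did not overlap. The log2 fold change was -2.05 (SE 0.28, adjusted p = 0.0097), and the call was lost only without dMF1/2 replicate 3 (adjusted p just above 0.05). In the control libraries at P16, Sema5a had the highest mean level of all semaphorins, 47.0, above Sema3b at 39.9. In the mutants its mean of 11.5 lay below those of Sema3b (42.4), Sema3c (31.3), Sema3g (16.2) and Sema4c (15.3).

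Sema7a, the semaphorin held by a lipid anchor, which also binds integrins, was lower as well, with 455, 306 and 320 reads in the P16 controls and 215, 160 and 131 in the mutants. The log2 fold change was -1.10 (SE 0.21, adjusted p = 0.0310), and the call was lost without control replicate 1, control replicate 3, dMF1/2 replicate 2 or dMF1/2 replicate 3 (adjusted p = 0.0619 to 0.108). The other 18 semaphorins were not called by limma, and DESeq2 called Sema6d lower (adjusted p = 0.0297). Their log2 fold changes ran from -0.70 for Sema6d (2372 to 3928 reads in controls, 1440 to 2491 in mutants) to 0.32 for Sema3g, and 8 of all 20 were positive. The secreted class 3 genes summed to 104 ± 12.5 in controls and 109 ± 17.5 in mutants, which overlapped, while the summed class 5 level was 47.6 ± 12.8 and 12 ± 4.51.

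The semaphorin receptors differed in both directions. Nrp2 (1:62703285-62818695), a co-receptor for class 3 semaphorins and for Vegfc, read 4886, 4960 and 5569 in the P16 controls and 3787, 2897 and 3043 in the mutants. All mutants lay under all controls, with a log2 fold change of -0.67 (SE 0.12, adjusted p = 0.0210). Nrp1, the related co-receptor that also binds Vegfa, overlapped (2608 to 3000 and 1964 to 2931 reads, -0.15, adjusted p = 0.656). Plxnd1 (6:115954811-115995005), the receptor of Sema3e in vessels, read 2497, 2628 and 2857 in the controls and 4443, 3498 and 4745 in the mutants, a log2 fold change of 0.66 (SE 0.12, adjusted p = 0.0272). Its ligand Sema3e gave -0.05 (adjusted p = 0.923). Both calls were also lost in the fit of all 12 libraries (adjusted p = 0.0847 for Nrp2 and 0.0861 for Plxnd1). The Nrp2 call was lost without control replicate 3, dMF1/2 replicate 2 or dMF1/2 replicate 3 (adjusted p = 0.0597 to 0.0931), and the Plxnd1 call in all removals but that of dMF1/2 replicate 2 (0.0527 to 0.101).

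Plxna4, a plexin that pairs with neuropilins, read 369, 511 and 428 in the P16 controls and 618, 690 and 993 in the mutants. This did not pass (0.79, SE 0.19, adjusted p = 0.0586) but did with the replicate block (0.0192). Plxnb2, the most abundant plexin, read 6093 to 6427 in the controls and 5549 to 6204 in the mutants, and its log2 fold change of -0.07 (SE 0.08, adjusted p = 0.726) lay within the spread between libraries. Plxnb3 was too low to test.

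With 2 Slit and 3 Robo genes tested at P16, limma called none of them, and DESeq2 called Robo1 higher (adjusted p = 0.0352) and Robo4 lower (0.0191). Slit3 read 10722 to 11356 in controls and 9679 to 10805 in mutants (-0.10, SE 0.09, adjusted p = 0.644), and Slit2 was at 0.00 (SE 0.12). Robo1 read 3746 to 4158 in controls and 4641 to 6368 in mutants (0.42, SE 0.13, adjusted p = 0.108). Robo2 lay in the other direction, at 4395 to 6011 and 3605 to 4032 (-0.38, SE 0.12, adjusted p = 0.141), and passed only with the replicate block (0.0367). Neither Robo gene overlapped between genotypes, while their summed family level did (22.8 ± 1.68 and 23.0 ± 2.65). Robo4, an endothelial receptor, read 7.0, 56.0 and 49.7 in the controls and 5.4, 8.4 and 9.5 in the mutants. The endothelial sum was likewise lowest in control replicate 1 among the controls, and its part in the Robo4 reads was not tested.

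The mural sum and the Schwann cell and nerve sum did not overlap between the genotypes at P16, the first lower and the second higher in the mutants. None of the 9 nerve markers tested was called, and of the 5 mural markers tested Cspg4 was called lower (-2.05, adjusted p = 0.0060; 33.6 to 55.3 RPKM in controls and 7.82 to 13.8 in mutants). Of the 15 DP markers, 3 were called higher and 1 lower in the P16 mutants. Of the mural, endothelial, nerve, keratinocyte, melanocyte, immune, muscle, sheath and fibroblast lists, Cspg4 was the only gene called that day. Whether any of this has a part in the guidance genes was not tested.

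**Figure D5:**
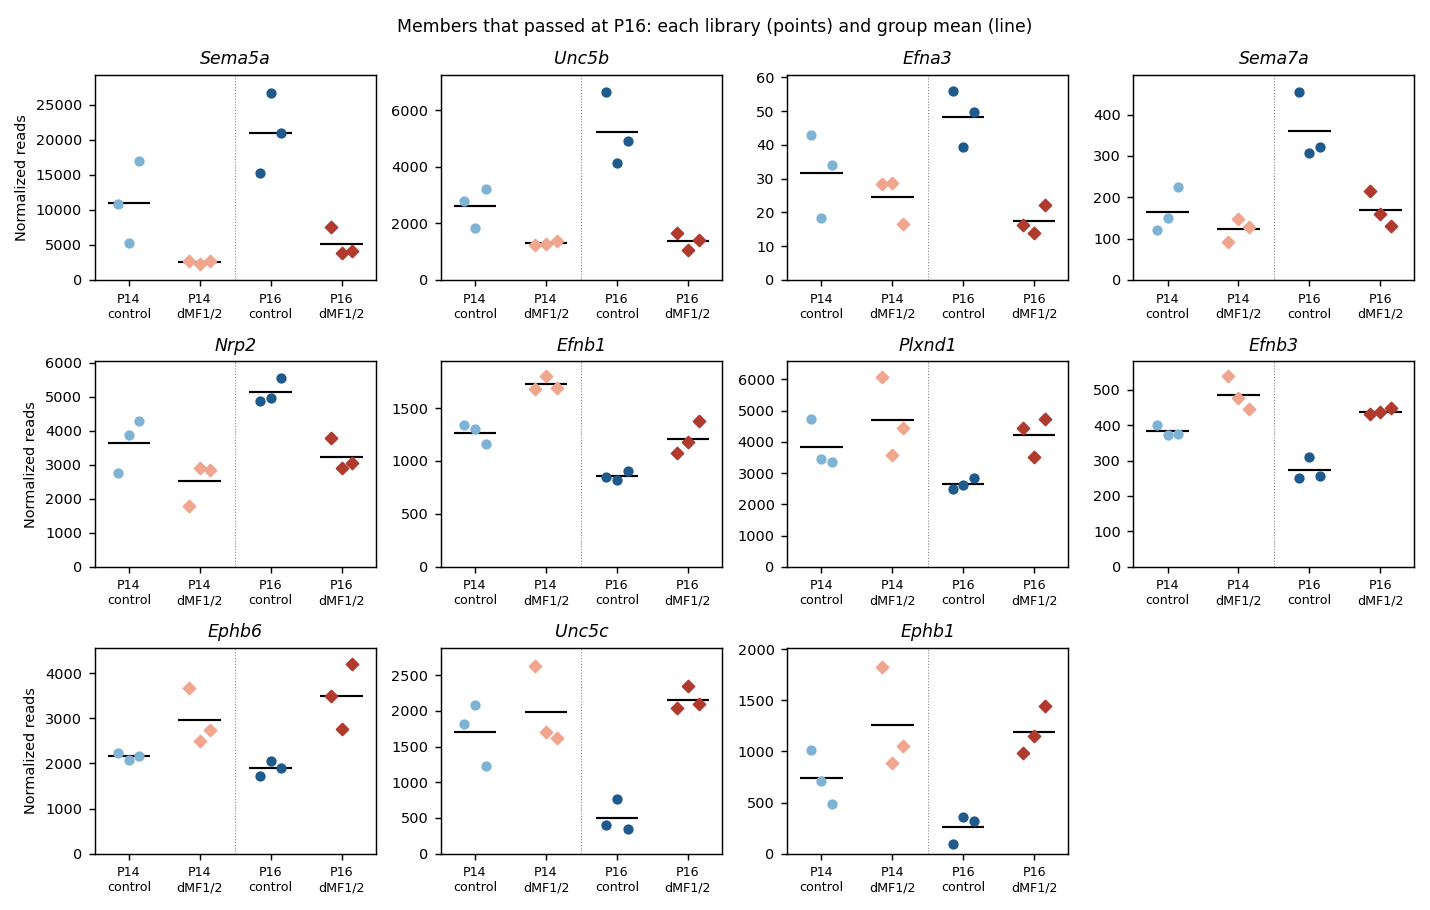
Normalized reads of the 11 members called at P16 in each library (points) with the group mean as a line, on linear axes from 0 and scaled within a day, with circles for control and diamonds for dMF1/2. At P16 the genotypes are apart in all 11, and at P14 they are apart in Sema5a, Unc5b, Efnb1, Efnb3 and Ephb6 and overlap in the other 6.

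Partner and effector genes were described from lists written from general knowledge. Of 22 co-receptors and other ligands tested at P16, 2 were higher and 1 lower in dMF1/2. Besides Dcc these were Ntng2, a membrane-bound netrin relative (563, 722 and 632 reads in controls, 923, 1051 and 1198 in mutants; 0.72, adjusted p = 0.0223), and Gpc1, a heparan sulfate proteoglycan that binds Slit (3920, 2194 and 2504 against 1368, 747 and 1181; -1.39, adjusted p = 0.0286). Of 70 intracellular effectors tested, 0 were higher and 3 lower. Kalrn, an exchange factor used by ephrin receptors, gave -1.42 (adjusted p = 0.0159), the adaptor Nck2 gave -0.58 (0.0250), and Vasp, which promotes actin filament growth, gave -0.56 (0.0243). The share of effectors called is close to the background of 4.32%. Each of these calls except that of Dcc was lost without control replicate 3, dMF1/2 replicate 2 or dMF1/2 replicate 3, and some also without control replicate 1 (Ntng2, Nck2) or dMF1/2 replicate 1 (Nck2), with adjusted p from just above 0.05 to 0.0956.

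At P14, 0 of 57 members passed between dMF1/2 and control (limma), against 0.0525% of all 13334 genes, with 8 members and 976 of all genes (7.32%) at an unadjusted p under 0.05 and 0 members called by edgeR. DESeq2 on the recovered reads called 5 (Sema5a, Sema6d and Unc5b lower, Efnb1 and Plxna4 higher), against 1.55% of all genes. The fit with the replicate block also called 5, namely Sema5a (adjusted p = 0.0101), Sema6d (0.0014), Unc5b (0.0185) and Nrp2 (0.0185) lower and Efnb1 (0.0427) higher, against 1.68% of all genes. Without control replicate 2, Sema5a and Unc5b passed (both adjusted p = 0.0377) among 18 genes in all, and without both replicate 1 libraries none did.

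Sema5a read 10844, 5301 and 16928 in the P14 controls and 2770, 2331 and 2737 in the P14 mutants, a log2 fold change of -1.93 (SE 0.38, adjusted p = 0.248). The 3 mutants were close to each other and the 3 controls far apart, with the lowest control still above every mutant. Unc5b read 2790, 1839 and 3206 in controls and 1231, 1287 and 1363 in mutants (-0.98, SE 0.20, adjusted p = 0.248). Sema6d read 2717, 1874 and 2668 in controls and 1241, 874 and 1063 in mutants (-1.19, SE 0.18, adjusted p = 0.135). Unc5c overlapped at P14, with 1222 to 2086 reads in controls and 1617 to 2625 in mutants (0.21, SE 0.25, adjusted p = 0.966).

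The genotypes did not overlap in 9 members at P14 (12.7% of all genes), 5 higher and 4 lower in dMF1/2. Slit2 was among the lower ones, with 7336 to 8306 reads in controls and 6090 to 6749 in mutants (-0.32, adjusted p = 0.479). In 7 of 57 members the genotypes were apart in the same direction on both days, against 5.14% of all genes. Of these, Sema5a and Unc5b were lower, and Efnb1, Efnb3, Ephb6, Plxna3 and Plxna4 higher. Plxna4 read 422 to 435 in the P14 controls and 549 to 681 in the P14 mutants (0.48, SE 0.10, adjusted p = 0.273). Plxna3, a receptor of class 3 semaphorins with neuropilins, showed small differences at 386 to 526 and 531 to 655 reads at P14 (0.29, SE 0.15, adjusted p = 0.793) and 447 to 523 and 541 to 668 at P16 (0.28, SE 0.11, adjusted p = 0.214). Efnb1 read 1157 to 1338 and 1683 to 1799 at P14 (0.45, SE 0.09, adjusted p = 0.243), a difference close in size to that at P16. With 3 libraries against 3 an exact two-sided permutation test cannot go below p = 0.1, the value of each member without overlap.

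Between P14 and P16 in control DP cells, 9 of 59 members changed (limma over all 12 libraries scaled together), 4 rising and 5 falling, against 14.5% of all 13415 genes tested. This share of 15.3% is near the background. These changes use the same P16 control libraries as the P16 genotype comparison, so the values are given side by side. Unc5c fell from a mean of 1731 to 497 rescaled reads (-1.86, SE 0.29, adjusted p = 0.0036) and Unc5b rose from 2646 to 5161 (0.97, SE 0.22, adjusted p = 0.0166). Efnb1 fell from 1281 to 844 (-0.60, adjusted p = 0.0041), Efnb3 from 388 to 269 (-0.53, 0.0088), Efna2 from 312 to 192 (-0.69, 0.0173) and Ephb1 from 747 to 253 (-1.72, 0.0323). Sema7a rose from 167 to 355 (1.10, 0.0210), Nrp1 from 1879 to 2712 (0.53, 0.0346) and Epha2 from 170 to 291 (0.76, 0.0402). Of the 9, Unc5c, Efnb1 and Efnb3 passed under every removal of 1 library.

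The count of control changes fell to 4 without P14 control replicate 1, P14 control replicate 2 or P16 control replicate 1. Without both P14 replicate 1 libraries it fell to 5, with Ephb1, Sema7a, Nrp1 and Epha2 lost. Unc5b was lost without P14 control replicate 2 or P16 control replicate 1 (adjusted p = 0.0509 and 0.0683). Efna2, Sema7a, Ephb1, Nrp1 and Epha2 were lost without P14 control replicate 1, P14 control replicate 2 or P16 control replicate 1 (0.0513 to 0.145). For Ephb1 the log2 fold change went from -1.72 to -1.10 without P16 control replicate 1. Nrp1 was also lost without P16 control replicate 2 or 3 (0.0887 and 0.0745), and Epha2 without P16 control replicate 3 (0.125), P14 dMF1/2 replicate 2 or 3 (0.0517 and 0.0557) or P16 dMF1/2 replicate 1 (0.0538). In a fit of the 6 control libraries alone, Unc5b (0.0589), Efna2 (0.0524), Ephb1 (0.0879) and Epha2 (0.1) were lost as well. Over the same days in control, 6 of the 15 DP markers were called lower. Of the tested endothelial markers 2 of 9 were called higher and 1 lower, and 2 of 4 melanocyte, 1 of 5 mural and 1 of 9 nerve markers were called higher, while none of the sheath, fibroblast, keratinocyte, immune or muscle markers was called. The part of these markers in the members' changes was not tested. Dcc fell by 2.01 on the log2 scale (adjusted p = 0.0044).

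In dMF1/2 DP cells, 1 of 59 members changed between the days, against 5.8% of all genes. Of the marker lists, 1 of 4 skeletal muscle markers was called lower and no other marker passed. The member that changed was Efnb1, which fell from 1743 to 1186 rescaled reads (-0.56, SE 0.10, adjusted p = 0.0075) and passed without any 1 library. Its decline in the mutants was thus similar in size to that in the controls (-0.60). Efnb1 was lost with the replicate number as a block across days (adjusted p = 0.0800), for which the numbers do not pair libraries. Sema6d gave 0.83 (adjusted p = 0.0622) and passed with DESeq2 (adjusted p = 0.0098) and without P16 dMF1/2 replicate 2 (0.0364). It also passed with that block (0.0281), from which nothing is drawn for the same reason. The mean level of Unc5c was 4.46 at P14 and 4.71 at P16 in the mutants, while it was 3.85 and 1.11 in the controls. For Unc5b the means were 8.89 and 9.19 in the mutants and 18.0 and 35.1 in the controls.

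Whether the effect of the genotype itself differed between the days was tested as an interaction of genotype and day. Of 59 members 0 passed in limma and 0 in edgeR, as did 0 of all 13415 genes (0%) in limma, with 7 members and 648 genes at an unadjusted p under 0.05. Unc5c had the smallest unadjusted p, with a difference between days of 1.97 (SE 0.41, unadjusted p = 0.0005, adjusted p = 1.0), and DESeq2 on recovered reads called it alone among the members (1.88, adjusted p = 0.0299), against 0.0522% of all genes. The differences were -0.95 (SE 0.31, unadjusted p = 0.0110) for Unc5b and 1.65 (unadjusted p = 0.0279) for Ephb1. A larger effect at P16 than at P14 is therefore not shown by limma for these genes.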

How the data were processed

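RNA of sorted DP cells was sequenced after ribosomal RNA depletion (stranded kit, single-end reads). The authors trimmed reads with Trimmomatic, aligned them with TopHat 2 to mm10 (GRCm38.p4), obtained counts of Ensembl genes from HTSeq-count, and deposited a signal per gene and library, the read count divided by a DESeq2 size factor set within each day. The strand setting and tool versions apart from TopHat 2 are not given in the sources used here. The deposited columns of the authors' own comparisons (mean, fold change, error, statistic and p-values) were not used. Whole reads were recovered from the values (100% whole within 0.01 of a read), giving 19302358 to 29860750 reads per library. Depth limits the low members: 3 reads are the most that a count of 0 allows, by counting error only.

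For each day the 2 genotypes were tested with limma 3.58.1 (R 4.3.3, trended variance) on log2(value + 1), keeping genes whose mean reached 10, and p-values were adjusted by Benjamini-Hochberg over all genes tested, with a threshold of 0.05. Fold changes of low genes are understated by the pseudocount. Days and the interaction were fitted on all 12 libraries rescaled together by median of ratios over the 14986 shared genes. Levels in RPKM used the reads rescaled in this way and GENCODE M21 exon lengths. The mean rescaled total of the 12 libraries stood for the depth of every library. The sample titles number the 3 replicates of a group, and the descriptions add letters that both genotypes of a day share. These are A, C and E at P14 and B, C and D at P16, and what they stand for is not stated. The study reports 3 mice for each genotype and day, and p-values measure the spread between these libraries. The deviations from group means of same-numbered libraries correlated within a day (0.586, 0.389 and 0.304 at P14, 0.256, 0.293 and 0.311 at P16, over genes), so the numbers pair libraries within a day, though no label says what they share, and a fit with the replicate block stands beside results it changes. Members named singly were those called in any comparison, the highest of each family by level, and those apart in the same direction on both days. Other genes named, some with several values such as Sema6d, were chosen after their values were seen. Members, lists and rules were chosen with earlier results of these data known. Alternatives were DESeq2 1.42.0 and edgeR 4.0.16 on recovered reads, TMM scaling, pseudocounts of 0.1 and 10, no filter, other sets of libraries, the block, and leaving out each library. The removal of both P14 replicate 1 libraries was added after seeing the data. Scripts were tested on simulated data.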

Additional observations from a re-analysis of the deposited data

How the results depend on the processing

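Over the 21 results of called genes, 287 alternatives kept the call, 77 lost it and none changed sign. Members with differences near 0 did change sign without 1 library, such as Ntn1 at P16 (-0.06 to 0.10). Members called at P16 (11) numbered 20 with DESeq2, 20 with the replicate block and 2 to 13 without 1 library, and 11 to 13 under edgeR, TMM, other pseudocounts, no filter or the fit of 12 libraries. At P14 (0) they were 5 with DESeq2, 5 with the replicate block, and 0 to 2 without 1 library. Over all genes, 582 passed at P16 and 7 at P14, against 1403 and 224 with the replicate block and 1123 and 207 with DESeq2. For the change in control (9) they were 4 to 11 without 1 library, 5 without both P14 replicate 1 libraries, and 0 with the replicate block across days. The numbers do not pair libraries across days (correlations of deviations -0.0545, -0.0621 and -0.130 in control, 0.0292, 0.208 and -0.162 in dMF1/2). A call lost or gained there is thus no sign of a weaker or stronger effect. For the change in dMF1/2 (1) they were 3 with DESeq2 (against 1341 of 12892 genes, 10.4%), 1 to 2 without 1 library and 2 without both P14 replicate 1 libraries. The interaction (0) gave 1 with DESeq2. The blocks changed no other count of member calls by more than 1.5 times. In the 250 bases before the start, 13.8% of all promoters held CTTTGA and 12.03% held CCGGAA. The causes of these differences between settings were not tested. With 3 libraries a group, small differences cannot be shown, and members under a mean of 10 reads were not tested.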
